A study of Bos taurus with 12 samples.

Results

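The complement genes encode a family of plasma proteins, receptors and inhibitors that tag microbes and damaged cells for removal. The 33 genes described here were taken from a list of symbols of this family and were matched by symbol to the Entrez gene IDs of the count files. All 33 were found among 30336 gene IDs, and all 33 passed the filter on low counts. Liver biopsies came from Holstein heifer calves at 4 d of age, which were fed and managed alike after birth. Calves of the CON group (6 libraries) were born to cows on a basal close-up diet with no added methionine, and calves of the MET group (6 libraries) to cows that received ethyl-cellulose rumen-protected methionine on top of that diet for the last 28 d of gestation. The question was whether the maternal diet was followed by a difference in the RNA of these genes in the liver of the calf.

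Complement is set off along the classical, lectin and alternative pathways, which meet at the cleavage of C3 and go on to assemble a pore, the membrane attack complex, in the target membrane. Most of its plasma proteins are made by hepatocytes, whereas the chains of C1q and properdin come largely from macrophages and other myeloid cells. Soluble and membrane-bound inhibitors keep the cascade from attacking the body's own cells.

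Each library held between 8277789 and 10397604 counted reads. A floor of 3 reads equalled 0.289 to 0.362 CPM (counts scaled to library size) and covers counting error only. A mean chi-square over genes, near 1 where nothing but counting noise separates libraries, was 1.33 for CON replicates 1 and 4 and 1.24 for MET replicates 1 and 3, against 25.1 to 132.9 for the other 64 pairs. These pairs differed by little more than sampling noise. The tests over 12 libraries counted both libraries of a pair. For means, SD, correlations and the tests over 10 samples, each pair entered as a single sample. This left 5 samples per diet for means and SD, and values per sample are listed with the pair first (CON 1 and 4, then 2, 3, 5 and 6; MET 1 and 3, then 2, 4, 5 and 6). All CON libraries carried one first index and all MET libraries another on a shared lane, and the index and the diet cannot be told apart. The labelled tissue was borne out by its markers, since 10 of 10 hepatocyte markers were tested and ALB, which encodes albumin, averaged 62111 CPM in CON and 39382 CPM in MET.

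Over the 12 libraries, 3 of the 33 complement genes differed between the diets at FDR ≤ 0.10, and all 3 were upregulated in MET calves. They were C1QB and C1QC, which encode chains of the recognition molecule of the classical pathway, and CFP, which encodes properdin, the stabiliser of the alternative pathway. Among all 13212 genes tested, 583 (4.41%) passed the same threshold, 276 (2.09%) higher and 307 (2.32%) lower in MET. None of the 33 passed in the lower direction, where edgeR had 2 with an unadjusted p of at most 0.05 (COLEC10 and C7), beside 10.4% of all genes, and DESeq2 called 1 (COLEC10), beside 5.36% of 12695 genes. In either direction over the 12 libraries, 6 of the 33 had an unadjusted p of at most 0.05, beside 20.5% of all genes, and DESeq2 called 5, beside 10.4%. Counts of this kind for smaller lists below are to be read beside these shares. When the libraries of a pair were summed, edgeR's quasi-likelihood test over the 10 samples called 0 of the 33 and 0% of 13242 genes. At an unadjusted p of at most 0.05 in that test there were 4 of the 33, beside 16.3% of all genes, and DESeq2 over the 10 samples called 3 of the 33, beside 5.71% of 11187 genes. The 12-library test treats the libraries of a pair as independent. Without CON replicate 1 or 4, which form a pair, it called 26 or 35 of all genes and 0 of the 33. Without MET replicate 1 or 3, the other pair, it called 206 or 332 of all genes. Leaving out any other library gave 216 to 565. How far the calls rest on the pairs was not tested beyond these fits and the summed pairs. The 3 genes that DESeq2 called over the 10 samples were C1QB, C1QC and CFP, whereas edgeR called none of them there. Log2 fold changes and intervals are over the 12 libraries unless the 10 samples are named. Of the 583 genes 47.3% were higher in MET, and with library size alone as the scale 66.4% of 107 were. The median log2 fold change of the 33 genes was −0.0049, beside −0.0031 for all genes tested, with 15 above and 18 below 0.

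**Figure D1:**
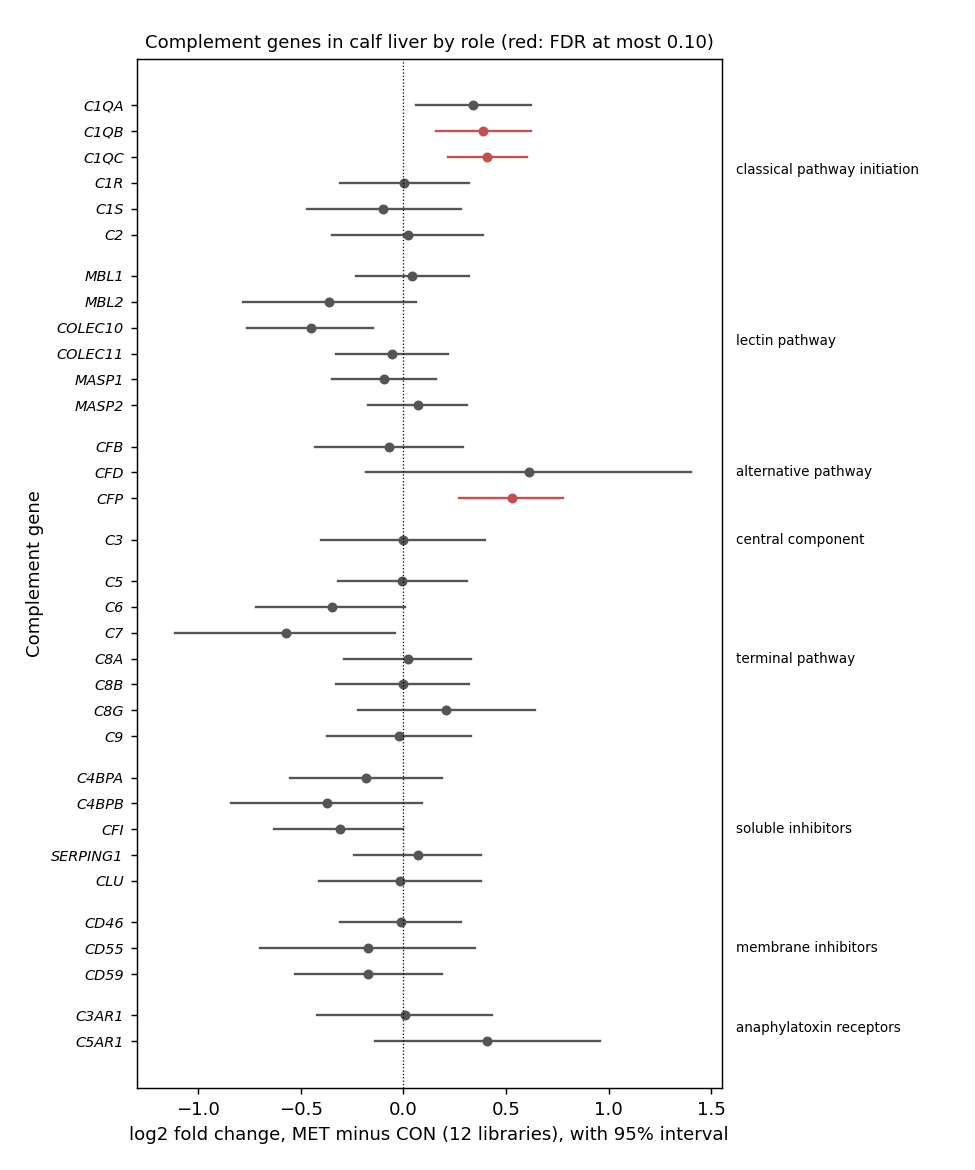
Log2 fold change (MET minus CON, 12 libraries) of each of the 33 complement genes, ordered by role, with points for the estimate and bars for its 95% interval. C1QB, C1QC and CFP, in red, had FDR at most 0.10, and the estimates of the other 30 genes lay between −0.57 for C7 and 0.61 for CFD.

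C1q opens the classical pathway by binding antibody on a surface, and its A, B and C chains are encoded by neighbouring genes on the minus strand of chromosome 2 of the assembly UMD 3.1.1. C1QB spans 130763199 to 130776066, C1QC 130783986 to 130788357, and C1QA 130792854 to 130795743. C1QC had 239, 250, 246, 251 and 259 CPM in the CON samples and 328, 371, 336, 296 and 312 CPM in the MET samples. Every MET sample lay above every CON sample, and the CON samples were close together. Mean expression was 249 ± 7.51 CPM in CON and 329 ± 28.3 CPM in MET (SD, n = 5). MET exceeded CON by a log2 fold change of 0.41 (SE 0.09, 95% interval 0.22 to 0.60), with FDR = 0.0571 by edgeR (quasi-likelihood test, Benjamini-Hochberg adjusted) over the 12 libraries and 0.175 over the 10 samples. Over the 10 samples the log2 fold change was 0.40 (95% interval 0.16 to 0.64), and DESeq2 gave an adjusted p of 0.00228. C1QC and CFP were the 2 of the 33 genes whose samples did not overlap between the diets, beside 3.70% of all genes tested.

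C1QB had 200, 216, 255, 229 and 226 CPM in CON and 288, 339, 313, 244 and 264 CPM in MET. The groups overlapped, because MET replicate 5 lay below CON replicate 3, while the other MET samples were above all of CON. Its mean was 225 ± 19.9 CPM in CON and 290 ± 37.8 CPM in MET (SD, n = 5). Its log2 fold change was 0.39 (SE 0.11, 95% interval 0.16 to 0.62), with FDR = 0.0855 over the 12 libraries and 0.213 over the 10 samples by edgeR (quasi-likelihood test, Benjamini-Hochberg adjusted). Over the 10 samples the log2 fold change of C1QB was 0.36 (95% interval 0.09 to 0.64), and DESeq2 gave an adjusted p of 0.068. C1QA, given in full after its values were seen because it encodes the remaining chain, had 214, 265, 310, 219 and 274 CPM in CON and 296, 385, 342, 263 and 314 CPM in MET. Its groups overlapped more, with CON replicate 3 above the MET pair and MET replicate 5. C1QA had a log2 fold change of 0.34 (SE 0.13, 95% interval 0.06 to 0.62) and did not pass, with FDR = 0.166 over the 12 libraries and 0.311 over the 10 samples by edgeR (quasi-likelihood test, Benjamini-Hochberg adjusted). Over the 10 samples its 95% interval was −0.00 to 0.64. DESeq2 called C1QA over the 12 libraries (adjusted p of 0.0915) but not over the 10 samples (adjusted p of 0.226).

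The call of C1QB was the least stable of the 3. With 1 library left out at a time, C1QB kept FDR ≤ 0.10 in 2 of 12 fits, those without CON replicate 3 or without MET replicate 5. C1QC kept it in 10 of 12 and lost it without CON replicate 1 (FDR = 0.119) or CON replicate 4 (FDR = 0.125) by edgeR (quasi-likelihood test, Benjamini-Hochberg adjusted). When the trend of each library on gene length was removed, the same test gave FDR = 0.146 for C1QB and 0.147 for C1QC, with log2 fold changes of 0.32 and 0.28. With library size alone as the scale, FDR was 0.172 for C1QB and 0.117 for C1QC, with log2 fold changes of 0.42 and 0.45, by edgeR (quasi-likelihood test, Benjamini-Hochberg adjusted). All 3 chains were higher in MET in each of the 37 fits run, which reuse the same libraries and are not independent. C1QA was called in 1, C1QB in 10 and C1QC in 19 of these 37 fits.

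After each diet mean had been removed, the Pearson correlations of the C1q chains were positive across the 10 samples. C1QA and C1QB had Pearson r = 0.825 (permutation p = 0.0041, adjusted 0.012 over the 9 pairs of subunits examined) and Spearman rho = 0.806 (permutation p = 0.007, adjusted 0.032). C1QB and C1QC had r = 0.821 (permutation p = 0.0029, adjusted 0.012) and rho = 0.758 (permutation p = 0.015, adjusted 0.034). For C1QA and C1QC, r was 0.673 (permutation p = 0.028, adjusted 0.05) and rho was 0.6 (permutation p = 0.075, adjusted 0.131). Without the 2 samples farthest from the median of the first gene, r was 0.679, 0.542 and 0.459 for these pairs in turn. Within CON, r was 0.327 for C1QA and C1QC and 0.278 for C1QB and C1QC, and within MET it was 0.928 and 0.98, so that these correlations were carried mostly by the MET samples. For C1QA and C1QB, r was 0.744 within CON and 0.924 within MET. Per kb of exon, the levels over all 10 samples were 226 CPM for C1QA, 152 CPM for C1QB and 270 CPM for C1QC.

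C1R and C1S encode the proteases that C1q carries, and C1R was among the 5 of the 33 genes with the highest CPM per kb. C1R had 2828, 2689, 2096, 2515 and 2139 CPM in CON and 2286, 1973, 2631, 3375 and 2582 CPM in MET. The lowest and the highest sample were both MET samples, replicates 2 and 5, and the groups overlapped throughout. For C1R the log2 fold change was 0.0035, with a 95% interval of −0.31 to 0.32. C1S averaged 2448 ± 434 CPM in CON and 2423 ± 638 CPM in MET (SD, n = 5), with a 95% interval of −0.47 to 0.28 on the log2 scale. C1R and C1S, which lie 19886 bases apart on chromosome 5 on opposite strands, had the highest correlation of the 9 pairs, with r = 0.955 (permutation p = 3e-05, adjusted 0.00027) and rho = 0.952 (permutation p = 8e-05, adjusted 0.00072). It was 0.878 without the 2 samples farthest from the median of C1R. No gene pairs beyond the 9 were correlated for comparison. A shift shared by many genes of a sample was therefore not set apart from a link between subunits. C2, which supplies the protease of the classical C3 convertase, ranged from 390 to 528 CPM in CON and from 319 to 649 CPM in MET.

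The lectin pathway starts when mannose-binding lectins or collectins bind sugars on a microbe, and 0 of its 6 genes passed in edgeR over the 12 libraries, where 1, COLEC10, had an unadjusted p of at most 0.05 and was also called by DESeq2. COLEC10, which encodes collectin liver 1, had 35.5, 21.5, 45.7, 35.2 and 29.5 CPM in CON and 26.1, 24.4, 23.7, 25.6 and 22.1 CPM in MET. The MET samples were close together and below 4 of the 5 CON samples, but CON replicate 2 was the lowest of all. COLEC10 averaged 33.5 ± 8.88 CPM in CON and 24.4 ± 1.59 CPM in MET (SD, n = 5). The log2 fold change was −0.45 (SE 0.14, 95% interval −0.76 to −0.15), and FDR was 0.111 over the 12 libraries and 0.228 over the 10 samples by edgeR (quasi-likelihood test, Benjamini-Hochberg adjusted). Without CON replicate 2, FDR was 0.0487 by edgeR (quasi-likelihood test, Benjamini-Hochberg adjusted), and DESeq2 on the 12 libraries gave an adjusted p of 0.0603. DESeq2 over the 10 samples gave an adjusted p of 0.161, and COLEC10 was called in 2 of the 37 fits run.

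COLEC11, whose product pairs with that of COLEC10, averaged 52 ± 5.07 CPM in CON and 51.5 ± 10.4 CPM in MET (SD, n = 5). The COLEC10 and COLEC11 pair showed no correlation across samples, with r = −0.014 (permutation p = 0.971, adjusted 0.971) and rho = 0.055 (permutation p = 0.891, adjusted 0.891). Of the mannose-binding lectins, MBL2 averaged 911 ± 208 CPM in CON and 752 ± 224 CPM in MET (SD, n = 5), with a log2 fold change of −0.36 and a 95% interval of −0.78 to 0.06. MBL1 averaged 260 ± 29 CPM in CON and 271 ± 52.2 CPM in MET (SD, n = 5). MASP1 and MASP2 encode the proteases that these lectins carry. MASP1 ranged from 193 to 257 CPM in CON and from 181 to 273 CPM in MET, and MASP2 from 217 to 303 CPM in CON and from 261 to 309 CPM in MET. The 95% intervals of their log2 fold changes were −0.35 to 0.16 and −0.17 to 0.31.

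The alternative pathway amplifies complement on any surface that lacks inhibitors. CFP, on the X chromosome between 91441702 and 91447087 on the minus strand, had 22, 33.3, 28.3, 21.2 and 28.5 CPM in CON and 38.6, 35.9, 39.3, 34 and 36.8 CPM in MET. Every MET sample lay above every CON sample, though MET replicate 5 was only just above CON replicate 2. Mean expression was 26.6 ± 5.03 CPM in CON and 36.9 ± 2.13 CPM in MET (SD, n = 5). This was a log2 fold change of 0.53 (SE 0.12, 95% interval 0.27 to 0.78), with FDR = 0.0646 over the 12 libraries and 0.175 over the 10 samples by edgeR (quasi-likelihood test, Benjamini-Hochberg adjusted). Over the 10 samples the log2 fold change was 0.47 (95% interval 0.19 to 0.76), and DESeq2 gave an adjusted p of 0.0471. CFP kept FDR ≤ 0.10 in 9 of 12 fits with 1 library left out, and lost it without CON replicate 1 (FDR = 0.122), CON replicate 4 (FDR = 0.125) or MET replicate 1 (FDR = 0.101) by edgeR (quasi-likelihood test, Benjamini-Hochberg adjusted).

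CFB, the serine protease of the alternative C3 convertase, had 5476, 5856, 3866, 5035 and 4272 CPM in CON and 4537, 3175, 5132, 6097 and 5048 CPM in MET. The lowest and highest of the 10 samples were again MET replicates 2 and 5, and the groups overlapped. CFB had a log2 fold change of −0.072, with a 95% interval of −0.43 to 0.29. CFB and C2 are adjacent on chromosome 23, on the same strand and 431 bases apart. CFD, the protease that cleaves factor B, ranged from 17.9 to 30.1 CPM in CON and from 14.1 to 75.3 CPM in MET. MET samples lay on both sides of the CON range, and the log2 fold change of 0.61 had a 95% interval of −0.18 to 1.40. Without MET replicate 6 it was 0.24, and with voom 0.35.

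C3, the component on which all pathways converge, was the most abundant of the 33 genes per kb of exon (2720 CPM per kb over the 10 samples). It had 13426, 16105, 14708, 13307 and 11964 CPM in CON and 12808, 8438, 15134, 20068 and 13717 CPM in MET. The MET samples spread further than the CON samples, with replicate 2 lowest and replicate 5 highest of all. Mean expression of C3 was 13902 ± 1569 CPM in CON and 14033 ± 4199 CPM in MET (SD, n = 5), and the 95% interval of its log2 fold change was −0.40 to 0.40. C3 alone took 31.1 ± 2.49% of the reads on the 33 genes in CON and 30.9 ± 2.73% in MET (SD, n = 5). The 33 genes together took 4.44 ± 0.221% of all counted reads in CON and 4.43 ± 0.588% in MET (SD, n = 5), from 3.58% in MET replicate 2 to 5.24% in MET replicate 5.

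Among the 33 genes, C3 was followed in level per kb by CFB (1981 CPM per kb), SERPING1 (1641 CPM per kb), C9 (1004 CPM per kb) and C1R (929 CPM per kb). At the other end were CD55 (0.996 CPM per kb), C5AR1 (1.47 CPM per kb), C3AR1 (4.03 CPM per kb) and COLEC10 (8.35 CPM per kb). The genes called in MET were in the lower and middle part of this range.

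**Figure D2:**
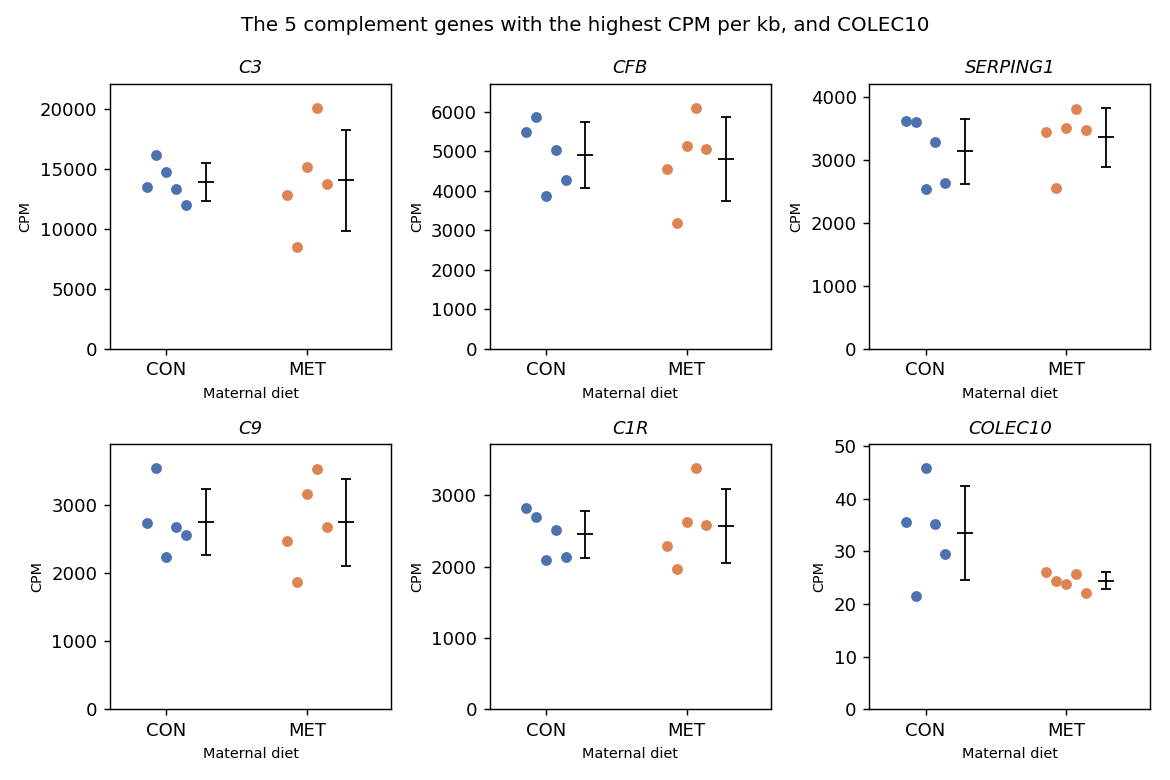
CPM of the 5 genes with the highest CPM per kb among the 33 complement genes, and of COLEC10, by maternal diet. Points are the 5 samples per diet, and the bars beside them give the mean and SD. For C3 the lowest sample, at 8438 CPM, was MET replicate 2, and the highest, at 20068 CPM, was MET replicate 5.

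The terminal pathway builds the membrane attack complex from C5 to C9, and 0 of its 7 genes passed in edgeR over the 12 libraries, with 1, C7, at an unadjusted p of at most 0.05 and 0 called by DESeq2. C9, which forms the wall of the pore, had 2734, 3537, 2232, 2672 and 2557 CPM in CON and 2476, 1873, 3162, 3535 and 2685 CPM in MET. CON replicate 2 and MET replicate 5 were almost level at the top, and MET replicate 2 was lowest. For C9 the log2 fold change was −0.023, with a 95% interval of −0.37 to 0.33. C5, which is cleaved to begin the assembly, averaged 2574 ± 185 CPM in CON and 2568 ± 588 CPM in MET (SD, n = 5).

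C6 and C7 join C5b in turn and lie 143902 bases apart on chromosome 20, on opposite strands. C6 averaged 654 ± 94.6 CPM in CON and 528 ± 145 CPM in MET (SD, n = 5), with a log2 fold change of −0.35 and a 95% interval of −0.72 to 0.01. C7 averaged 82.8 ± 18.3 CPM in CON and 57.3 ± 27.1 CPM in MET (SD, n = 5). Its MET samples fell apart into 3 between 36.2 and 40.3 CPM and 2 at 78.1 and 94.5 CPM, inside the CON range of 62 to 104 CPM. The log2 fold change of C7 was −0.57 (SE 0.25, 95% interval −1.11 to −0.04), and FDR was 0.212 over the 12 libraries and 0.371 over the 10 samples by edgeR (quasi-likelihood test, Benjamini-Hochberg adjusted). Over the 10 samples the 95% interval of C7 was −1.14 to 0.08, which includes 0.

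C8 is made of an alpha, a beta and a gamma chain. C8A averaged 1202 ± 117 CPM in CON and 1237 ± 283 CPM in MET, C8B 875 ± 149 and 843 ± 166 CPM, and C8G 1029 ± 246 and 1275 ± 374 CPM (SD, n = 5). C8G had a log2 fold change of 0.21 with a 95% interval of −0.22 to 0.64, and the log2 fold change was 0.051 without MET replicate 6 and 0.31 over the 10 samples. None of the C8 pairs passed the adjustment over the 9 pairs. C8A and C8G had r = 0.543 (permutation p = 0.106, adjusted 0.159) and rho = 0.576 (permutation p = 0.087, adjusted 0.131). C8A and C8B had r = 0.249 (permutation p = 0.496, adjusted 0.557) and rho = 0.358 (permutation p = 0.316, adjusted 0.355), although both lie within 10686 bases of each other on chromosome 3, on opposite strands. For C8B and C8G, r was 0.398 (permutation p = 0.262, adjusted 0.337) and rho was 0.358 (permutation p = 0.315, adjusted 0.355). Without the 2 samples farthest from the median of the first gene, r was 0.767, 0.341 and −0.055 for these pairs in turn.

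Of the 5 soluble inhibitors, 0 passed in edgeR over the 12 libraries, 0 had an unadjusted p of at most 0.05, and 0 were called by DESeq2. SERPING1, which encodes C1 inhibitor, had 3617, 3595, 2538, 3281 and 2631 CPM in CON and 3443, 2554, 3507, 3805 and 3468 CPM in MET. MET replicate 2 stood well below the other MET samples, at the level of CON replicates 3 and 6. The log2 fold change of SERPING1 was 0.069, with a 95% interval of −0.24 to 0.38. CFI, the protease that inactivates C3b and C4b, averaged 1920 ± 347 CPM in CON and 1537 ± 289 CPM in MET (SD, n = 5), with a log2 fold change of −0.31 and a 95% interval of −0.63 to 0.00.

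C4BPA and C4BPB encode the alpha and beta chains of C4b-binding protein and lie side by side on chromosome 16. C4BPA averaged 1566 ± 229 CPM in CON and 1479 ± 413 CPM in MET, and C4BPB 128 ± 28.7 and 109 ± 38.1 CPM (SD, n = 5). Their 95% intervals were −0.55 to 0.19 and −0.84 to 0.09 on the log2 scale. The chains varied together, with r = 0.725 (permutation p = 0.015, adjusted 0.034) and rho = 0.758 (permutation p = 0.015, adjusted 0.034). Without the 2 samples farthest from the median of C4BPA, r was 0.272, and within the diets it was 0.922 in CON and 0.658 in MET. CLU, which encodes clusterin, an inhibitor of pore assembly, averaged 1514 ± 276 CPM in CON and 1487 ± 410 CPM in MET (SD, n = 5).

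The membrane inhibitors protect host cells, and 0 of 3 passed in edgeR over the 12 libraries, 0 had an unadjusted p of at most 0.05, and 0 were called by DESeq2. CD59, which blocks the insertion of C9, averaged 519 ± 126 CPM in CON and 471 ± 101 CPM in MET (SD, n = 5). CD46, the cofactor for cleavage of C3b, averaged 151 ± 15.4 CPM in CON and 149 ± 34.9 CPM in MET (SD, n = 5). CD55, which speeds the decay of the convertases, was low, with 2.68 to 7.25 CPM over the 10 samples and 25 to 70 reads per library. The 95% intervals of the log2 fold changes were −0.53 to 0.19 for CD59, −0.31 to 0.28 for CD46 and −0.70 to 0.35 for CD55.

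The receptors of the anaphylatoxins C3a and C5a, found mainly on myeloid cells, were also low. C3AR1 ranged from 10.4 to 18.4 CPM in CON and from 7.61 to 19.5 CPM in MET. C5AR1 ranged from 2.74 to 5.15 CPM in CON and from 2.68 to 6.9 CPM in MET, with 22 to 60 reads per library. Neither passed in edgeR over the 12 libraries, where the 95% intervals were −0.42 to 0.43 for C3AR1 and −0.14 to 0.96 for C5AR1.

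Some samples were extreme in many complement genes at once. MET replicate 2 was the lowest of the 10 samples in 14 of the 33 genes, among them C3, C5, CFB, C9, C1R and C1S. The same sample was the highest for C1QA, C1QB and C1QC. MET replicate 5 was the highest in 11 of the 33 genes, among them C3, CFB, C1R, C1S and SERPING1, and the lowest in 0. No CON sample was highest in more than 5 or lowest in more than 3. The same count was not made over all genes. Scaled CPM summed over all genes tested was also lowest in MET replicate 2 (870551). It was highest in MET replicate 5 (1116527), with CON replicate 2 almost level (1116021). Whether the pattern is particular to complement genes was not tested.

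Some macrophage markers were higher in MET calves over the 12 libraries along with C1QB, C1QC and CFP. Of the 15 listed markers 14 were matched and tested, ADGRE1 being unmatched, and 5 had FDR ≤ 0.10 over the 12 libraries in edgeR's quasi-likelihood test, all higher in MET: AIF1, LAPTM5, CD14, SPI1 and TYROBP. The log2 fold changes of these genes were 0.46, 0.41, 0.70, 0.47 and 0.53. All 14 had estimates above 0, with a median of 0.40, beside −0.0031 for all genes, but 9 of the 14 did not pass. The most abundant marker per kb, MARCO, averaged 427 ± 72.1 CPM in CON and 432 ± 78.9 CPM in MET (SD, n = 5) and did not pass. No marker was at 0 in any library. Summed over the 14 markers, expression was 1255, 1495, 1609, 1500 and 1427 CPM in CON and 1782, 1771, 1616, 1722 and 2013 CPM in MET. Every MET sum was above every CON sum, MET replicate 4 by little. Over the 10 samples edgeR called 0 of the 14, with 7 at an unadjusted p of at most 0.05, and DESeq2 called 4. In bulk liver RNA, more macrophages and more RNA per macrophage cannot be told apart, and the part of these markers in the result for C1q and properdin was not tested.

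**Figure D3:**
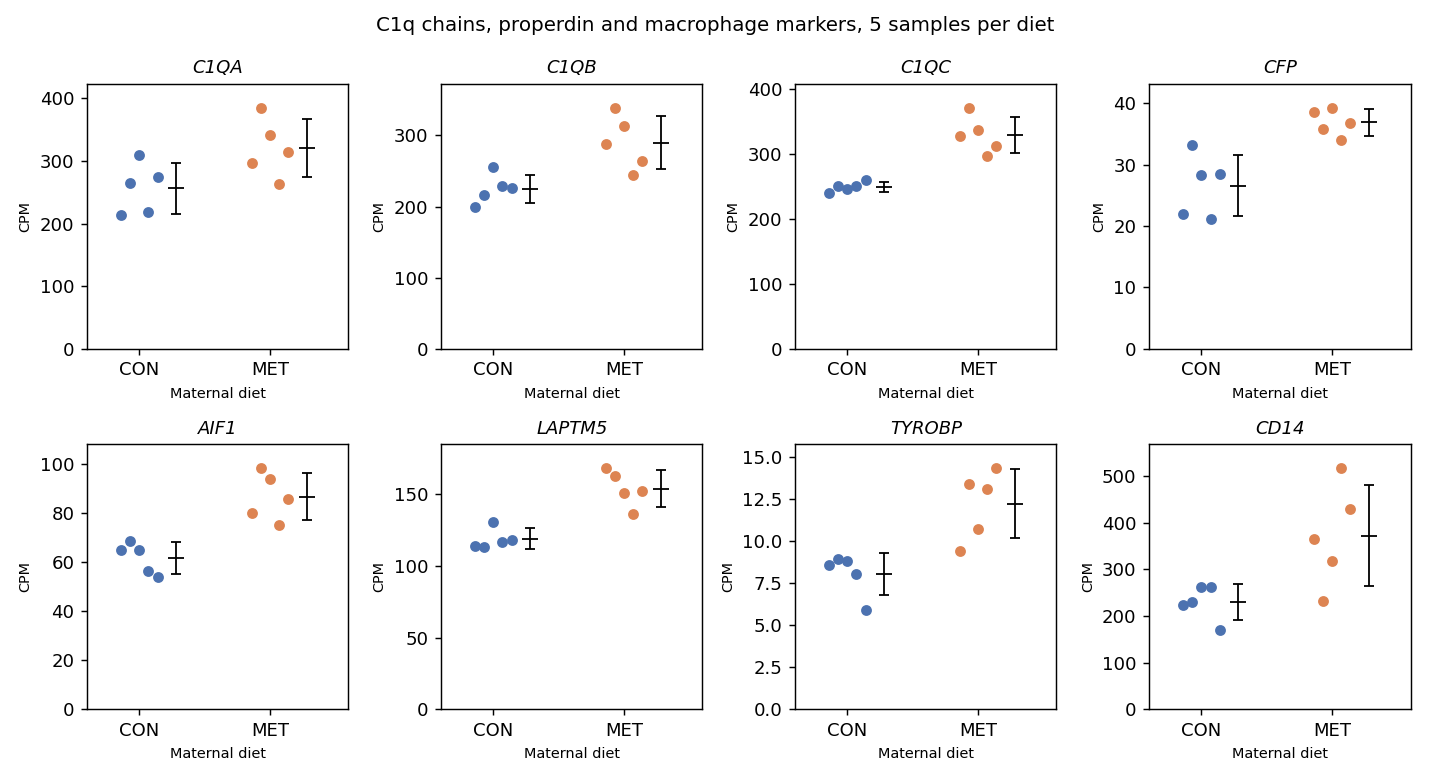
CPM of the C1q chain genes, CFP and 4 of the 5 called macrophage markers by maternal diet. Of all 14 markers tested, 3 had samples that did not overlap between the diets, beside 3.70% of all genes tested. Points are the 5 samples per diet, and the bars beside them give the mean and SD. C1QC, CFP, AIF1, LAPTM5 and TYROBP had every MET sample above every CON sample, whereas C1QA, C1QB and CD14 overlapped.

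Markers of other cells were listed in the same way, and no test compared the lists. Neutrophil and monocyte markers had 6 of 6 estimates above 0 with a median of 0.90, and 5 of 6 with a median of 0.31 without MET replicate 4, whose summed expression of this list was 167 CPM against 20.8 to 63.5 CPM in the other MET samples. T and NK cell markers had 5 of 6 estimates above 0 with a median of 0.43. Stellate cell and fibroblast markers had 0 of 9 above 0 with a median of −0.29, and 1 of 9 with a median of −0.18 without CON replicate 6. Hepatocyte markers had 1 of 10 above 0 with a median of −0.26. Of the hepatocyte markers 1 of 10 was called over the 12 libraries, APOB, lower in MET (1247 ± 92.1 CPM in CON and 942 ± 84.1 CPM in MET, SD, n = 5). DESeq2 called ALB and APOB, both lower in MET, with the 12 libraries and again with the 10 samples. Of the stellate cell and fibroblast markers 1 of 9 was called, LUM, and of the bile duct markers 1 of 4 tested, CFTR, both lower in MET. DESeq2 called LUM and CFTR over the 12 libraries and neither over the 10 samples. With 1 library left out at a time, edgeR called APOB in 1, LUM in 2 and CFTR in 3 of 12 fits. edgeR called 0 of 6 neutrophil and monocyte, 0 of 6 T and NK cell, 0 of 2 B cell, 0 of 8 sinusoidal endothelial and 0 of 2 erythroid markers tested over the 12 libraries, with 1, 2, 0, 1 and 0 at an unadjusted p of at most 0.05 and with 1 (S100A12), 0, 0, 0 and 0 called by DESeq2. ELANE, PAX5 and 6 of the 8 erythroid markers had 0 reads in at least 1 library.

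Of 23 other complement genes 21 were matched and 19 tested, and edgeR called 0 of them over the 12 libraries, with 3 at an unadjusted p of at most 0.05 and 1 called by DESeq2, ITGB2. ITGB2 encodes the shared beta chain of the receptors for C3 fragments, and its log2 fold change was 0.39 with FDR = 0.101 by edgeR (quasi-likelihood test, Benjamini-Hochberg adjusted). The most abundant of these genes per kb was VTN, which encodes vitronectin, with 5241 ± 906 CPM in CON and 5250 ± 715 CPM in MET (SD, n = 5).

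Acute phase genes are switched on in the liver by inflammation, as are C3, CFB, C9 and C4BPA. The list used here also held receptors and regulators of that response, among them IL6R, IL6ST, STAT3 and IRF1. edgeR called 0 of the 20 tested over the 12 libraries, with 2 at an unadjusted p of at most 0.05, and DESeq2 called 2, IL6R and IL6ST, both lower in MET. Of the 20 estimates 17 were above 0, with a median of 0.14, but 11 with a median of 0.046 without MET replicate 5 and 12 with a median of 0.055 without MET replicate 4. With voom there were also 12, with a median of 0.058. M-SAA3.2, a serum amyloid gene, was below the filter and not among the 20, with 0.114 to 0.387 CPM in CON and 0.309 to 3.65 CPM in MET, and it was called when genes were kept by CPM above 0.5 in 2 libraries. HP, which encodes haptoglobin and is named here after its values were seen, had 8789, 10926, 10319, 4244 and 2650 CPM in CON and 2914, 1602, 26535, 49705 and 11051 CPM in MET. MET replicates 4 and 5 were far above the rest and MET replicate 2 was lowest, and replicates 5 and 2 were also the highest and lowest for C3. ORM1 was the most abundant acute phase gene per kb, with 14056 ± 2949 CPM in CON and 15033 ± 5377 CPM in MET (SD, n = 5).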

How the data were processed

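The 12 libraries of calf liver RNA were sequenced from one end on 1 lane. Per the file headers and the labels, the authors trimmed the reads, aligned them with STAR 2.5.3a to UMD 3.1.1, and deposited raw counts of reads per gene from featureCounts of Subread 1.5.2 (stranded, reads matching several places or genes left out). No exon of the 33 genes overlapped an exon of another gene on the same strand.

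From these counts, CPM after TMM scaling and edgeR's quasi-likelihood test on diet alone were computed with edgeR 4.0.16 in R 4.3.3, after its default filter (minimum count 10, total 15), with Benjamini-Hochberg adjustment over all genes and FDR ≤ 0.10. CPM per kb used the exon length in the files. Correlations used log2 CPM (prior count 2) and 100000 two-sided permutations of the 10 samples after diet means were removed. Alternatives were DESeq2 1.42.0, voom of limma 3.58.1, other scalings and filters, a length correction, and libraries left out. Steps were tested on simulated data. Figures used Python 3.11.15.

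Names came from a RefSeq table of the later assembly ARS-UCD2.0, which named 25105 of 30336 IDs, and positions from the files. Values per sample were given for genes with FDR ≤ 0.10 over the 12 libraries, with no overlap between the diets, in the edgeR test of the summed pairs at an unadjusted level of 0.05 (n = 10), or among the 5 highest in CPM per kb. Of the other lists, called genes, the most abundant gene and genes at 0 were named. Members and lists were chosen with earlier results of these data known.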

Additional observations from a re-analysis of the deposited data

Results flagged for a closer look

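Within each diet, each of the 33 genes was examined for 1 sample far from the other 4, by the gap to its neighbour as a share of the whole range (Dixon's test). Of 66 groups, 4 had such a sample, and chance gives about 1 in 20. C8B in MET replicate 2 had 548 CPM, below 886 to 942 CPM in the other MET samples. SERPING1 in MET replicate 2 had 2554 CPM, below 3443 to 3805 CPM. CFI in CON replicate 2 had 2529 CPM, above 1708 to 1865 CPM in the other CON samples. C5AR1 in CON replicate 2 had 5.15 CPM, above 2.74 to 3.33 CPM.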

How the results depend on the processing

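Over the 12 libraries, 3 of the 33 genes were called, and 1 with library size only, 5 with DESeq2, 1 with the gene length correction, 0 with replicate numbers as blocks, 0 with the near-identical pairs summed and 0 to 3 with 1 library left out. Over the 10 samples, DESeq2 called 3 and edgeR 0. For all genes the count was 583, and 107 with library size only, 1314 with DESeq2, 238 with no filter, 250 with the length correction, 6 with blocks, 0 with pairs summed and 26 to 565 with 1 library left out. For macrophage markers it was 5, and 1 with library size only, 3 with no filter, 2 with the length correction, 0 with blocks, 0 with pairs summed and 0 to 5 with 1 left out. For the other complement genes it was 0, and 1 with RLE factors, 1 with DESeq2 and 0 to 1 with 1 left out. For the acute phase list it was 0, and 2 with DESeq2 (IL6R and IL6ST) and 1 with the CPM filter. Blocks join samples that share only a number: the same-number correlations were 0.148, 0.0369, −0.132, −0.0113, −0.104 and −0.19, and 0 libraries correlated best with their own number. Without the 10 most counted genes, C3 among them, the other 32 genes held 4.11% of the remaining reads in CON, against 4.44% for all 33. A prior count of 0.5 changed no correlation between subunits.

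Of the 33 genes, 19 kept their direction in every alternative on 12 libraries. The reversals were all near 0. With upper quartile factors the log2 fold change was −0.016 for C1R, −0.018 for C3 and −0.014 for C3AR1. With voom it was −0.0045 for C1R, −0.019 for C2, −0.038 for C3 and −0.029 for C3AR1. With blocks it was −0.006 for C1R, −0.016 for C2, −0.037 for C3 and −0.012 for C3AR1, and with pairs summed −0.044 for C2. With the length correction it was −0.00069 for C1R, −0.098 for MBL1, 0.051 for MASP1, 0.083 for C5, −0.0027 for C8A and 0.052 for CD46. With library size only it was 0.012 for C5, 0.025 for C8B, 0.0043 for CLU and 0.0014 for CD46. With the CPM filter it was 0.0052 for C5 and 0.0067 for C8B, and with no filter 0.0049 and 0.0062. With 1 library left out it ran from −0.097 to 0.065 for C1R, −0.075 to 0.12 for C2, −0.025 to 0.12 for MBL1, −0.15 to 0.0053 for COLEC11, −0.16 to 0.021 for CFB, −0.14 to 0.11 for C3, −0.097 to 0.087 for C5, −0.074 to 0.088 for C8A, −0.039 to 0.098 for C8B, −0.11 to 0.064 for C9, −0.098 to 0.11 for CLU, −0.10 to 0.065 for CD46 and −0.11 to 0.13 for C3AR1. The cause was not tested.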
